A study of Mus musculus with 8 samples.

Results

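Foxa1, Foxa2, Grhl2, Grhl3, Elf3, Ehf, Gata3 and Ovol1 encode transcription factors of epithelial cells, and Esrp1 and Esrp2 encode epithelial splicing factors. Members were taken as every probe set whose platform annotation names one of these 10 genes alone, which gave 18 of the 45101 probe sets on the array, and 12 of the 18 were bright enough to be tested. They were read in the genital tubercle region, the embryonic outgrowth that becomes the penis or the clitoris. Tissue was microdissected from FVB/N mouse embryos at embryonic day 14 (Theiler stage 22), from 4 males and 4 females, with no treatment or engineered allele named in the labels. Samples were not pooled, each was read on 1 Affymetrix array after 2 rounds of RNA amplification, and the question of the series is how the sexes differ at this stage. The labels do not say whether embryos shared a litter, so the p-values speak of the spread among these 8 samples, part of which may be technical.

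The tubercle is a core of mesenchyme covered by surface ectoderm, with an epithelial urethral plate of endodermal origin along its underside. Forkhead factors such as Foxa1 and Foxa2 open chromatin in endodermal epithelia, grainyhead-like and Ets factors maintain epithelial junctions and barrier genes, and the Esrp proteins direct the splicing of many transcripts to their epithelial forms. Loss of these factors in epithelial cells is known to go with a shift to mesenchymal traits, and Zeb, Snail and Twist proteins act against them as repressors of epithelial genes.

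The deposited intensities are linear and were scaled to a shared trimmed mean, so levels are compared between arrays for 1 probe set and not between probe sets. Every difference is the male mean of log2(intensity + 16) less the female mean, followed by its standard error (SE) from 1 limma fit over 22519 probe sets, a scale that understates the change of dim probe sets. The sex labels were borne out by Eif2s3y, a Y-linked gene, which read 4109 to 6136 on male arrays and 31.1 to 70.85 on female arrays. One array stood apart: male replicate 3 read 16036 for Xist, the RNA of the inactive X chromosome, against 230.0 to 619.6 on the other male arrays and 32465 to 35816 on female arrays. Its Eif2s3y level, 5571, was within that of the other males, and whether this sample held tissue of both sexes was not tested. The control probe sets for 18S ribosomal RNA averaged 18188 to 32172 on male arrays and 10700.4 to 24867 on female arrays, and the median intensity was 212 to 249 on male arrays and 184 to 207 on female arrays. The ratio of 3' to 5' control signal, a measure of how complete the RNA is after amplification, was for Gapdh 12.6 to 16.3 in males and 14.4 to 21.2 in females. For actin it was 5.30 to 9.04 in males and 6.47 to 8.54 in females. The part of these measures in the sex differences was not tested.

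Most probe sets of the epithelial factors gave no call between the sexes, which with 4 arrays per sex does not show equal levels. Intervals of some uncalled ones were wide, as for Ehf 1451375_at (0.11 to 1.53) and Foxa2 (-0.72 to 0.12). At an adjusted p under 0.05, 1 of the 12 tested member probe sets was called, an Esrp2 probe set that was lower in males, while 40.5% of all tested probe sets were called. That share was not matched for brightness. With an upper-quartile filter, which left 4 member probe sets, it was 52.3%, and 0 of those 4 were called. In such bulk samples, fewer epithelial cells and less RNA per cell cannot be told apart. By direction, 0 members were higher in males, beside 18.7% of all tested probe sets, and 1 was higher in females, beside 21.9%. The median difference of the 12 was -0.02, with 6 above 0 and 6 below, and the median over all tested probe sets was -0.01. The median size of the difference, regardless of sign, was 0.26 for the members and 0.35 for all tested probe sets. Male and female ranges did not overlap on 1 of the 12, a Grhl2 probe set on which males were above. Over all tested probe sets, ranges did not overlap on 37.1%, with males above on 15.8%.

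**Figure D1:**
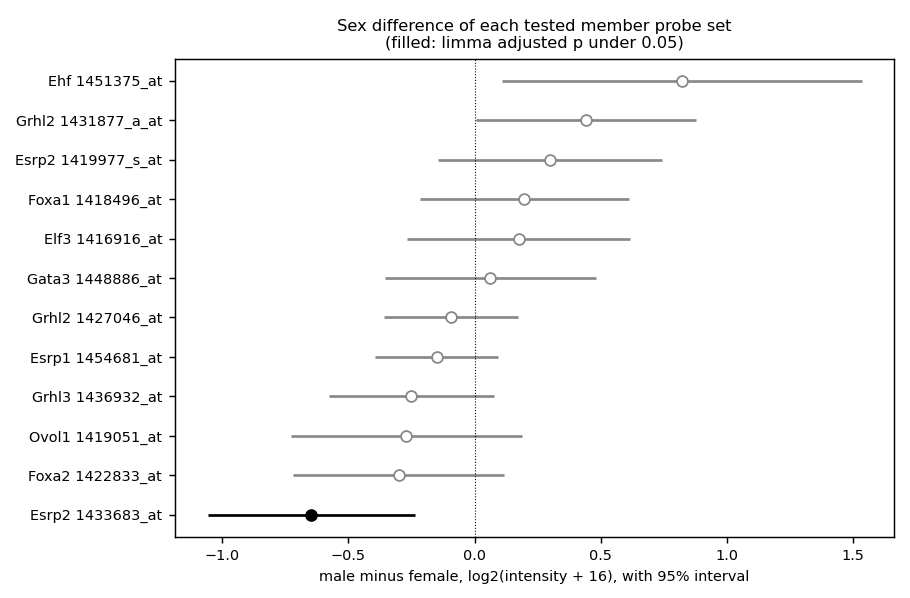
Difference between male and female tubercles for each tested member probe set, male minus female on the log2(intensity + 16) scale (x axis), with its 95% interval from the limma fit (4 arrays per sex). The Esrp2 probe set 1433683_at, at -0.65, is the filled point, and the intervals of 9 of the other 11 span 0.

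Foxa1 and Foxa2, the forkhead factors of endodermal epithelium, gave no call. Foxa1 (1418496_at) read 2798, 4495, 3166 and 4663 in males and 3861, 3492, 2375 and 3343 in females. Males 2 and 4 were above every female and males 1 and 3 lay inside the female range, so the groups overlapped. Its difference was 0.20 ± 0.19 (SE, limma adjusted p = 0.429), with a 95% interval of -0.21 to 0.61. Single arrays moved this value: it was 0.33 without male replicate 1, 0.10 without male replicate 2, 0.086 without male replicate 4 and 0.053 without female replicate 3. Foxa2 (1422833_at) read 450.4, 452, 539 and 317 in males and 506, 542, 608 and 495 in females. Here 2 females were above every male, male 3 lay inside the female range, and the difference was -0.30 ± 0.19 (limma adjusted p = 0.228). Its interval, -0.72 to 0.12, leaves room for a male level well below the female one, and without male replicate 4, the lowest array, the difference was -0.16.

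Grhl2, a grainyhead-like factor that activates E-cadherin and claudin genes, was read by 4 probe sets, of which 2 were tested. The brighter one (1427046_at) read 1705, 1716, 1899 and 1851 in males and 2079, 1765, 2074 and 1759.7 in females. Females 1 and 3 were above every male, females 2 and 4 were within the male range, and the difference was -0.09 ± 0.12 (limma adjusted p = 0.563). The dimmer one (1431877_a_at, whose suffix marks probes common to several transcripts of the gene) read 369.7, 369, 433 and 377 in males and 270, 296, 213 and 359.8 in females. Every male was above every female on it, though female 4 came close to the lowest males. The difference of 0.44 ± 0.20 did not pass after adjustment (unadjusted p = 0.0472, limma adjusted p = 0.0962). It passed without the mean-variance trend (limma adjusted p = 0.0477) and with array weights (0.0435). The ratio of the brighter to the dimmer probe set averaged 2.17 ± 0.06 on the log2 scale in males and 2.70 ± 0.41 in females (SD, n = 4 each). In a limma fit of such ratios over 8109 pairs of probe sets, of which 29.2% were called, the Grhl2 ratio had a difference of -0.54 ± 0.20, short of the threshold (limma adjusted p = 0.0757). Without female replicate 4 it passed, at -0.69 (limma adjusted p = 0.0265).

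Grhl3, the grainyhead-like factor of epidermal barrier formation, read 979.7, 992, 887 and 1099.8 on its only probe set (1436932_at) in males and 1194, 1316, 1282 and 953 in females. Females 1, 2 and 3 were above every male and female 4 was inside the male range. The difference was -0.25 ± 0.15 (limma adjusted p = 0.203), with an interval of -0.58 to 0.08.

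Elf3 and Ehf are Ets factors of epithelial cells. Elf3 (1416916_at) read 353, 329.9, 539.9 and 359 in males and 306, 385, 312 and 372 in females, so only male 3 was above the female range. Its difference was 0.17 ± 0.20 (limma adjusted p = 0.522), and without male replicate 3 it was 0.020. Ehf, on the one of its 4 probe sets that was tested (1451375_at), read 347, 697, 315 and 275 in males and 345, 244, 146 and 153 in females. Male 2 was the highest array, male 1 was just above the highest female, and males 3 and 4 lay inside the female range. The difference of 0.82 ± 0.33 did not pass (unadjusted p = 0.0276, limma adjusted p = 0.0635), and its 95% interval was 0.11 to 1.53. It passed with array weights (1.03, limma adjusted p = 0.0240), without male replicate 4 (0.97, limma adjusted p = 0.0452) and without female replicate 1 (1.05, limma adjusted p = 0.0290). Without male replicate 2, whose array was the brightest for it, the difference was 0.54 (limma adjusted p = 0.184).

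Gata3, a zinc finger factor of skin and urogenital duct epithelia, read 1556, 1075, 1442 and 1173 in males and 1392, 1216, 1581 and 888 in females (1448886_at). The female range held all 4 males, and the difference was 0.06 ± 0.19 (limma adjusted p = 0.819), with an interval of -0.36 to 0.48. Ovol1, a zinc finger repressor of the epidermal lineage that restrains mesenchymal genes, read 239, 186, 199 and 232 in males and 320.0, 232, 288 and 213 in females on its tested probe set (1419051_at). Females 1 and 3 were above every male, and the difference was -0.27 ± 0.21 (limma adjusted p = 0.327).

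The promoters of these factors are shown because the repressors of epithelial genes that are measured below bind E-box sequences, of which CACCTG is the form used by Zeb and Snail proteins. RefSeq promoter windows (GRCm38.p6), from 250 bases before to 50 bases after the start of a transcript, were at hand for 5 of the 10 members, with 7 windows in all: 3 for Foxa2 and 1 each for Elf3, Foxa1, Gata3 and Grhl3. The motif CACCTG, on either strand, was in the windows of Elf3 (140 bases before the start), Foxa1 (23 bases before) and Grhl3 (19 bases before and again 9 bases in), and in none of those of Foxa2 and Gata3. Of all 32851 promoter windows 20.2% held it. The forkhead motif TGTTTAC was in the Foxa1 window alone, 141 bases before the start on the minus strand of the window, and 3.65% of all windows held it. The grainyhead motif AACNGGTT was in none of the 7 windows and in 2.09% of all. A match is a run of letters, and binding was not measured. The 250 bases before each start are given 5′ to 3′ on the strand of the gene, which is the minus strand for all of them, with the motifs CACCTG and TGTTTAC, or their reverse complements, in capitals.
Elf3 (chr1:135258473-135258722): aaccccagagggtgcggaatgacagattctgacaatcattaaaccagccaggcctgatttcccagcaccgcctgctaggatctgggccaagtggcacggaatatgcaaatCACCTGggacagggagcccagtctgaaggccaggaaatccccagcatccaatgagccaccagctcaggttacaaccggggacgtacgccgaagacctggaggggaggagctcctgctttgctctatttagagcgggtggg
Foxa1 (chr12:57546112-57546361): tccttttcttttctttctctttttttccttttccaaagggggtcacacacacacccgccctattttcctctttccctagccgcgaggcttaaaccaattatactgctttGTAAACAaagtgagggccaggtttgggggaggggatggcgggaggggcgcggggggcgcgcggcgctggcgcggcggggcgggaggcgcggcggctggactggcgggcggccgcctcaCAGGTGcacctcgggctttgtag
Grhl3 (chr4:135573633-135573882): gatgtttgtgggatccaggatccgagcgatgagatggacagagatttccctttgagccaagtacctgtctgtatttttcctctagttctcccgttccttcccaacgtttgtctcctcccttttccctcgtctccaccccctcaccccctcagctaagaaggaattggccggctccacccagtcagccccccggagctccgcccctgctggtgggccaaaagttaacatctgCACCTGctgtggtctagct
The genes with an E-box there, Elf3 at 0.17, Foxa1 at 0.20 and Grhl3 at -0.25, did not pass between the sexes, and neither did Foxa2 and Gata3, without one. Esrp2, the member with a call, had no window at hand, so the motif could not be set against a called sex difference.

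Esrp1 and Esrp2 are RNA-binding proteins that favour epithelial exons, among them the IIIb exon of Fgfr2. Esrp1 (1454681_at) read 6803, 8149, 8140.2 and 8578 in males and 9539, 9067, 9548 and 7131 in females. Females 1, 2 and 3 were above every male, female 4 was inside the male range, and the difference was -0.15 ± 0.11 (limma adjusted p = 0.306). Its interval was -0.40 to 0.09, and the difference was -0.080 without male replicate 1 and -0.25 without female replicate 4.

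Esrp2 held the one member probe set that was called, and its 2 probe sets went in opposite directions. On the brighter one (1433683_at) males read 824, 1029.9, 748 and 908 and females 1262, 1650.1, 1712 and 996. Females 1, 2 and 3 were above every male, and female 4 was below male 2, so the groups overlapped. The level fell to 877 ± 121 in males, against 1405 ± 338 in females (SD, n = 4 each), a difference of -0.65 ± 0.19 (limma adjusted p = 0.0171) with an interval of -1.06 to -0.23. The call ended without female replicate 2 (-0.56, limma adjusted p = 0.0544) or without female replicate 3 (-0.54, limma adjusted p = 0.0610). With the Xist-bearing male replicate 3 left out, the probe set was still called at -0.57 (limma adjusted p = 0.0494). With the 18S control level as a covariate the difference was -0.64 and did not pass (limma adjusted p = 0.0921).

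The dimmer Esrp2 probe set (1419977_s_at, whose suffix marks probes that can match transcripts of more than one gene) read 395, 455, 497 and 499.6 in males and 267, 378, 385 and 483 in females. Its difference was 0.30 ± 0.20 (limma adjusted p = 0.260), or 0.15 without female replicate 1. The log2 ratio of the brighter to the dimmer probe set was 1.03, 1.15, 0.57 and 0.84 in males and 2.18, 2.08, 2.11 and 1.02 in females. Females 1, 2 and 3 were far above the males and female 4 was at the male level. The fit over all pairs called 29.2% of them. In it this ratio was lower in males by a difference of -0.95 ± 0.26 (limma adjusted p = 0.0263). The 2 probe sets thus differed in their sex difference at that threshold, while the male and female ranges of the ratio overlapped. That call ended without male replicate 3 (limma adjusted p = 0.0701), female replicate 1 (0.0717), female replicate 2 (0.0640) or female replicate 3 (0.0707), and with the 18S covariate (-0.85, limma adjusted p = 0.171). The average of both Esrp2 probe sets gave a difference of -0.17, with no call (limma adjusted p = 0.383).

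**Figure D2:**
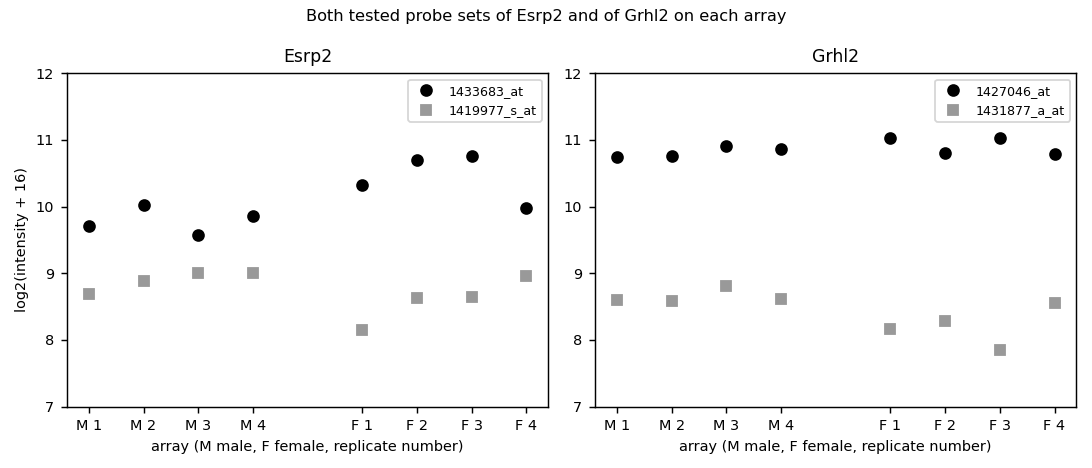
Level of both tested probe sets of Esrp2 (left) and Grhl2 (right) on each male (M) and female (F) array, as log2(intensity + 16). For Esrp2, the gap between the probe sets is 2.08 to 2.18 on female arrays 1 to 3, and 1.02 on female array 4, inside the male values of 0.57 to 1.15.

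The 6 member probe sets that were too dim to be tested were 2 of Grhl2, 3 of Ehf and 1 of Ovol1, with intensities between 2.08 and 243. Their mean log2 difference was above 0 on all 6, as it was on 64.6% of all probe sets too dim to be tested. With no filter, when 19.4% of all probe sets were called, 0 of these 6 passed, and among all 18 member probe sets 3 had an unadjusted p under 0.05 and 1 passed in that limma fit. The Grhl2 probe set 1431878_at was the one of the 6 with an unadjusted p under 0.05. It read 53.2, 15.5, 30.7 and 23.2 in males and 5.88, 15.9, 15.5 and 6.39 in females, and it did not pass in the unfiltered limma fit (0.76, limma adjusted p = 0.0845).

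**Figure D3:**
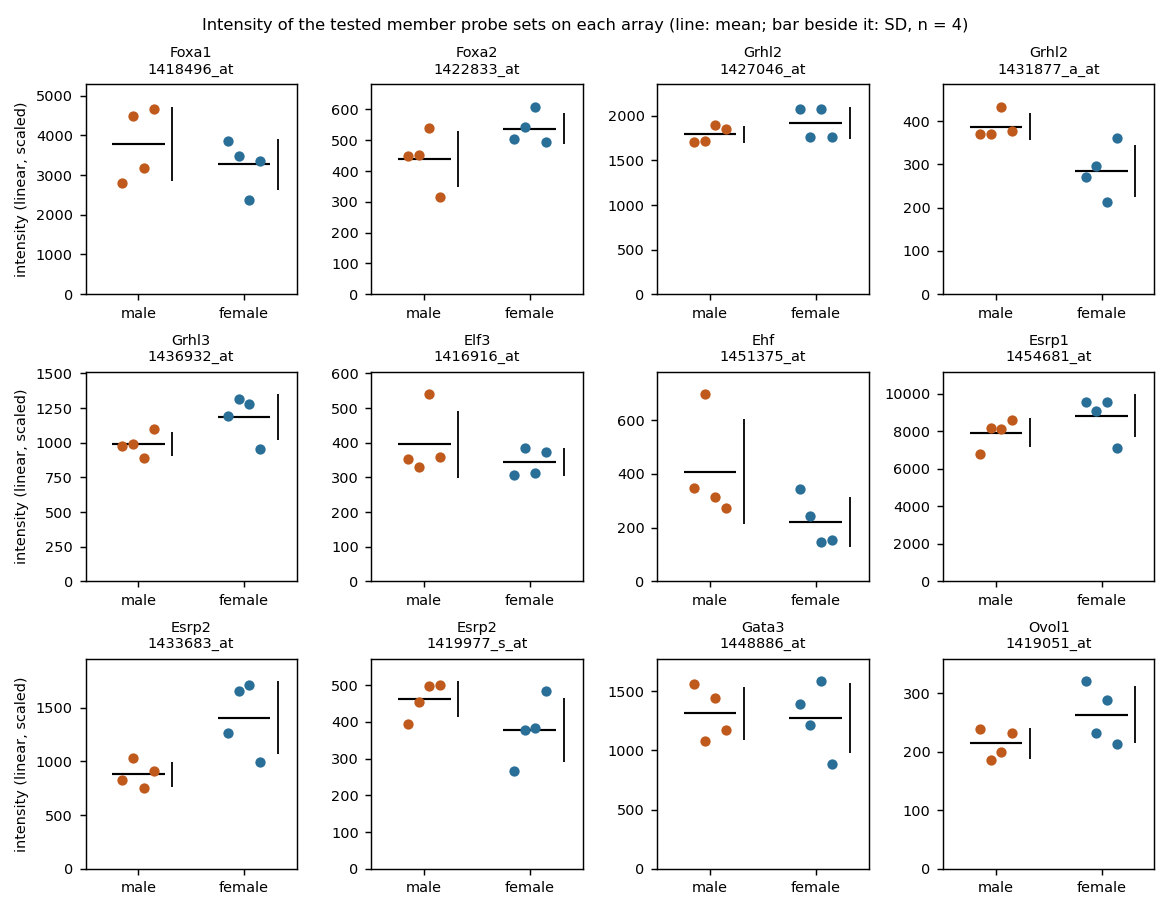
Intensity of each tested member probe set on every array (points), on a linear scale from 0, with the mean (line) and SD (bar) of 4 males and 4 females. Males and females overlap in every panel except Grhl2 1431877_a_at, where males span 369 to 433 and females 213 to 359.8.

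Among females, replicate 4 was the lowest of the 4 on 7 of the 12 tested member probe sets, those of Foxa2, Grhl3, Esrp1, Gata3 and Ovol1 and the brighter ones of Grhl2 and Esrp2, and the highest on 2. Its mean log2 value over the brightest probe set of each of the 10 genes was 9.79, against 10.04 to 10.14 on the other female arrays and 9.91 to 10.04 on the male arrays. The genes of epithelial structure did not stand apart in the same way, with a mean log2 value of 10.80 there and 10.77 to 10.94 on the other female arrays. After each sex mean was removed, Pearson's r over the 8 arrays between pairs of members had a median of 0.13 over 45 pairs, with 28 above 0. The highest was 0.87, between Grhl3 and Esrp2, and the lowest was -0.67, between Foxa1 and Foxa2. The 5 genes most like the mean of the members in this sense, out of 11479, were Rab18, a small GTPase of lipid droplets (r = 0.99), Dnm1l, a dynamin of mitochondrial fission (0.99), Pafah1b2, a catalytic subunit of an acetylhydrolase (0.98), Ctcf, a chromatin insulator protein (0.98), and the Y-linked Uty (0.97), which was dim on female arrays, at 5.89 to 88.11, the lowest on female 4. Without female replicate 4 these values were 0.97, 0.97, 0.94, 0.94 and 0.86 over 7 arrays. All points share the arrays' scaling, and 1% of the 11479 genes had an r above 0.91.

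Other epithelial transcription and splicing factors were examined beside the members, each on its brightest tested probe set. Over all genes read that way, 42.2% were called, 14% higher in males and 28.2% higher in females. Of 16 related factors read here, 12 were tested, 4 rose in males, 1 was lower in males and 7 did not pass, with a median difference of 0.34, while over all genes the median was -0.12. Grhl1, the third grainyhead-like gene, rose to 1479 ± 148 in males, against 626 ± 121 in females, with every male above every female. Its difference was 1.23 ± 0.17 (limma adjusted p = 0.000283), and it was called under each of the 17 alternatives that gave it a value, with limma adjusted p between 3.89e-05 and 0.00313. The interval of Grhl1, 0.86 to 1.61, lay above those of the brighter Grhl2 probe set, -0.36 to 0.17, and of Grhl3, and overlapped that of the dimmer Grhl2 probe set, 0.0063 to 0.88. The difference between these genes was not tested.

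Gata2, the relative of Gata3, rose by 0.77 ± 0.17 (limma adjusted p = 0.00374), and ended its call with the 18S covariate (0.0517). Trp63, the p53 family factor of stratified epithelia, read 22769 ± 2033 in males and 16306 ± 1322 in females, a rise of 0.48 ± 0.08 (limma adjusted p = 0.00109). Tfap2c, an AP-2 factor of surface ectoderm, rose by 0.43 ± 0.14 (limma adjusted p = 0.0274) on a probe set with an s_at suffix, and its other 2 tested probe sets, at -0.03 and -0.31, did not pass. The Tfap2c call ended without any 1 of 5 arrays, male replicates 3 and 4 and female replicates 1, 2 and 3 (highest limma adjusted p = 0.0850). It also ended with no filter (0.0576), without the mean-variance trend (0.0602) and with the 18S covariate (0.218). Klf4, a zinc finger factor of differentiated epithelium, was the one lower in males on its brightest probe set (-0.29 ± 0.06, limma adjusted p = 0.00334). Its other tested probe set did not pass (-0.10, limma adjusted p = 0.683). The Klf4 call ended with the 18S covariate (limma adjusted p = 0.0544). Relative to the epithelial structure genes, a scale that shifts every difference alike, Klf4 was at 0.16. Klf4 was named after its value was seen. On other probe sets, Tfap2a was lower in males (-0.56, limma adjusted p = 0.00882) and Klf5 higher (1.08, limma adjusted p = 0.0275), while their brightest did not pass. Not tested for low signal were Rbm47, Tfcp2l1, Spdef and Barx2.

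Genes known to be activated or spliced by the members were also read on their brightest tested probe sets. Of 13 in the list 11 were tested. In males 2 rose and 2 fell, beside 14% and 28.2% of all genes, and 7 did not pass, with a median of -0.20. Krt8, a keratin of simple epithelia, fell to 1896 ± 444 in males, against 4190 ± 795 in females (-1.15 ± 0.19, limma adjusted p = 0.000715), and its other 2 probe sets were called in the same direction. Shh, the signal of the urethral plate and a known target of the Foxa factors, was lower in males by a difference of -0.39 ± 0.11 (limma adjusted p = 0.0112). It was no call with the 18S covariate (-0.27, limma adjusted p = 0.166). Relative to the epithelial structure genes, a scale that shifts every difference alike, it was at 0.055. The Esrp substrates Fgfr2 (0.25 ± 0.07, limma adjusted p = 0.0184) and Enah (0.19 ± 0.07, limma adjusted p = 0.0369) rose slightly. The Fgfr2 call ended without female replicate 1 (limma adjusted p = 0.0510), without the mean-variance trend (0.0592) and with the 18S covariate (0.177). The Enah call ended without any 1 of 5 arrays, male replicates 1 and 3 and female replicates 1, 2 and 4 (highest limma adjusted p = 0.104). It also ended with no filter (0.0983), without the trend (0.163), with array weights (0.0994) and with the 18S covariate (0.389).

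Some other probe sets of the Esrp substrates differed from the brightest ones. The other tested Fgfr2 probe set, at 0.24, was close to the brightest and did not pass (limma adjusted p = 0.288). Cd44, a hyaluronan receptor, had no call on its brightest probe set (-0.30, limma adjusted p = 0.152), while another was higher in males (0.96, limma adjusted p = 0.0156). Ctnnd1, which encodes p120 catenin, was at 0.12 (limma adjusted p = 0.550) and on another probe set at 1.10 (limma adjusted p = 0.0102). One of the 4 other Enah probe sets was higher in males (1.42, limma adjusted p = 0.00123) and the other 3, between -0.25 and -0.20, did not pass. The annotation used here does not say which exons a probe set reads, so these values are not measures of splicing.

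Of 8 repressors of epithelial genes, 7 were tested, each read on its brightest probe set. Called higher in males were 0, beside 14% of all genes, and 3 were lower, beside 28.2%. The other 4 did not pass, and the median was -0.23. Twist2 (-0.35 ± 0.09, limma adjusted p = 0.00798), Twist1 (-0.31 ± 0.09, limma adjusted p = 0.0182) and Tcf4 (-0.24 ± 0.06, limma adjusted p = 0.00670) were lower in males, all basic helix-loop-helix factors. Set against the epithelial structure genes described below, a scale that shifts every difference alike, Twist1, Twist2 and Tcf4 were at 0.14, 0.10 and 0.21. On 2 of its 5 other tested probe sets Tcf4 rose in males (1.45 and 0.31). The Twist1 call ended without male replicate 2 or 4 (limma adjusted p = 0.0538 for each) and without the mean-variance trend (0.0642). The Tcf4 call ended without that trend (0.0706) and with the 18S covariate (0.0626). Zeb1 (-0.23, limma adjusted p = 0.0605) and Zeb2 (0.13, limma adjusted p = 0.335) did not pass on their brightest probe sets, while on another 2 probe sets Zeb2 rose in males (1.57 and 1.68). Snai1 was too dim to be tested, and Snai2 differed by -0.17 (limma adjusted p = 0.113). Prrx1 did not pass on its brightest probe set (0.11, limma adjusted p = 0.156), while another was higher in males (0.49, limma adjusted p = 0.00311).

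**Figure D4:**
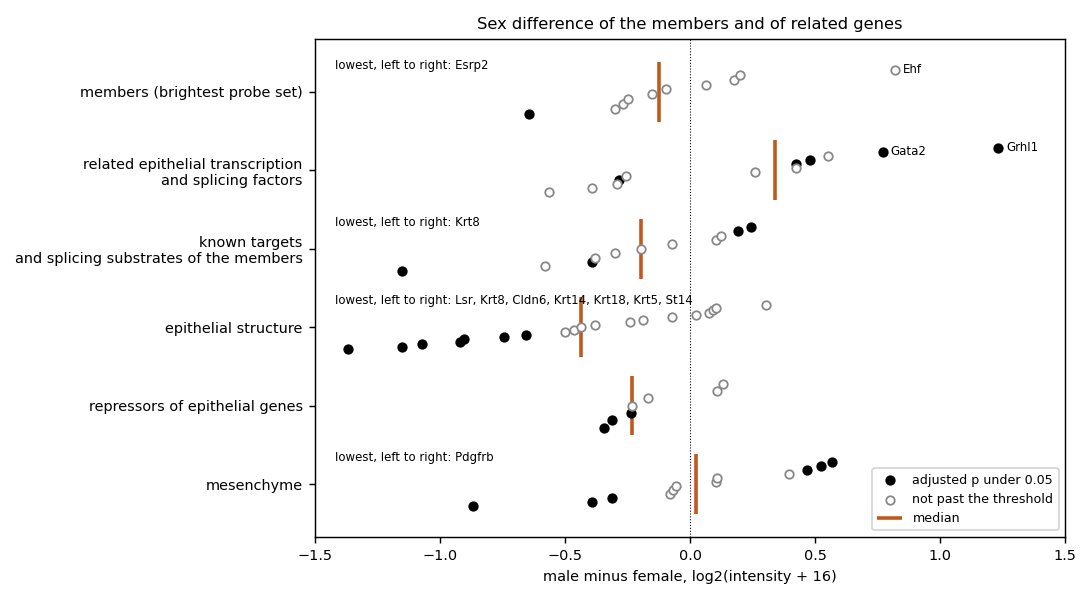
Difference between male and female tubercles, male minus female on the log2(intensity + 16) scale, for each gene on its brightest tested probe set, by list (rows), with filled points at a limma adjusted p under 0.05 and a line at the median. The medians are -0.12 for the members, 0.34 for related factors, -0.20 for targets and substrates, -0.44 for epithelial structure, -0.23 for the repressors and 0.02 for mesenchyme.

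The content of epithelium was read from 23 structural genes, of which 19 were tested. In males 0 were higher and 7 lower, beside 14% and 28.2% of all genes, and 12 did not pass, with a median of -0.44. Among the 12 were Epcam and Cdh1, named after their values were seen. Epcam, the epithelial adhesion molecule, read 11531 ± 562 in males and 11356 ± 830 in females (0.02, interval -0.15 to 0.20, limma adjusted p = 0.834). Cdh1, which encodes E-cadherin, read 5059 ± 301 in males and 5322 ± 381 in females (-0.07, interval -0.28 to 0.14, limma adjusted p = 0.575). Lower in males, besides Krt8, were the lipolysis-stimulated receptor gene Lsr of tricellular junctions (-1.37 ± 0.26, limma adjusted p = 0.00185), the claudin gene Cldn6 (-1.07 ± 0.29, limma adjusted p = 0.0110, and 0.129 with the 18S covariate) and the basal keratin gene Krt14 (-0.92 ± 0.17, limma adjusted p = 0.00161), with another 2 Krt14 probe sets at -0.87 (limma adjusted p = 0.00455) and 0.07 (0.861). Krt18, Krt5 and St14 were the other 3. The intensity summed over the 19 genes was 58367 to 61435 in males and 68492 to 73089 in females, without overlap. Setting values against the mean of these 19 genes takes the list's mean difference, -0.45, from every probe set alike. The median difference of all tested probe sets was then 0.44. On that scale 7 of the 12 member probe sets passed, each of them with males above, beside 54.6% of all tested probe sets. Esrp2 1433683_at, at -0.20, did not pass (limma adjusted p = 0.419).

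Markers of other cell types are given beside the background over all genes, 14% called higher and 28.2% called lower in males. Mesenchyme genes gave 3 higher and 3 lower in males out of 12 tested, with a median of 0.02 and summed intensities of 245370 to 260020 in males and 248077 to 264483 in females. Of these, Col1a1 was higher on its brightest probe set (0.47) and lower on another (-1.98, limma adjusted p = 0.000393). Vim, called lower at -0.39, was at 0.06 and 0.02 on its other probe sets, with no call. Skeletal muscle genes gave 6 of 8 higher in males and 0 lower, with a median of 0.97 and sums of 11962 to 19028 in males and 3919.8 to 9255 in females. Of 5 tested neuron genes 3 were higher and 1 lower in males, with a median of 0.49 and sums of 10491.9 to 14681 in males and 7965 to 9388 in females. Of 5 tested blood endothelium genes 3 were higher and 1 lower, with a median of 0.66 and sums of 8634 to 10787 in males and 6742 to 7905 in females. Erythroid genes (4 tested, 1 higher and 1 lower, median 0.05) summed to 43830.5 to 53745 in males and 39021 to 41612 in females. That sum was mostly Hbb-y (46400 in males, 39050 in females), whose other probe sets were called in both directions (0.19, limma adjusted p = 0.0400, and -0.42, 0.00638). Macrophage genes (5 tested, 2 higher and 1 lower, median 0.08) summed to 5554 to 6702 in males and 4202 to 4914 in females. Csf1r, called higher at 0.38, was at -0.32 and -0.40 on its other probe sets, with no call. By the mean log2 value of their genes, the erythroid and macrophage lists overlapped between the sexes. Erythroid genes were at 10.24 to 10.66 in males and 10.52 to 10.73 in females, and macrophage genes at 9.23 to 9.60 and 9.32 to 9.53. None of the tested markers was at 0, and the part of these cell types in the values of the epithelial factors was not tested.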

How the data were processed

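RNA of 8 genital tubercle samples (4 male, 4 female) was read on 1 Affymetrix array each. The deposited values are linear intensity, and the software the authors used was GCOS, per the submitters' processing notes (version not given in the sources). On every array the 2%-trimmed mean was 1500.01, so the values were used as already scaled. Genes were named from the platform annotation, in which 34945 probe sets name 1 gene, 932 several and 9160 none; 64 control probe sets were left out. All 10 members matched the RefSeq gene table (GRCm38.p6).

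Values were transformed as log2(intensity + 16). Probe sets with a mean at or above the median of all means (7.77) were tested with limma (version 3.58.1, R version 4.3.3), allowing a mean-variance trend. Sex was the single term, and p-values were adjusted over all 22519 by Benjamini-Hochberg. A gene of a list was read on its brightest tested probe set, and up to 4 called genes with the largest differences were named from each list of factors, targets, repressors and epithelial structure. The cell type lists are given as counts, medians and sums, with a few of their genes named. The 5 genes most like the members were those with the highest Pearson's r to the members' mean after each sex mean was removed. Epcam, Cdh1, Krt18, Krt5, St14, Klf4, Klf5, Tfap2a, Cd44, Ctnnd1, Zeb1, Zeb2, Snai2 and Prrx1 were added after values were seen. So were the named cell type markers, other probe sets of listed genes and the fit of probe set ratios. The members and lists were chosen with earlier results of these data known.

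The fit was tested on simulated data. None of the 28 pairs of arrays was identical, and Pearson's r was 0.966 to 0.985 for arrays of 1 sex and 0.904 to 0.952 for a male and a female array. The number of arrays limits the precision. Alternatives were pseudocounts of 1 and 64, quantile normalization, an upper-quartile filter or none, array weights, no trend, a replicate block, the 18S level as a covariate, the epithelial structure genes as a scale, the mean of a gene's probe sets and leaving out each array.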

Additional observations from a re-analysis of the deposited data

Results flagged for a closer look

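Of 36 sets of 4 values, 1 for each sex and member probe set, 2 held, on the log2 scale, an array far from the other 3 of its sex, and chance alone gives about 1 in 20. Male replicate 3 read 432.76 on the Grhl2 probe set 1431877_a_at, above 369 to 377 on the other male arrays, and it is also the male array with Xist signal. Female replicate 2 read 89.31 on the untested Ehf probe set 1447760_x_at, below 139 to 142 on the other female arrays.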

How the results depend on the processing

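With 4 arrays per sex, several differences moved with the scaling or with single arrays. Of 12 tested member probe sets, 1 was called, and 9128 of all tested probe sets. With the upper-quartile filter, which leaves 4 member probe sets, the counts were 0 and 5890 (52.3% of all tested). With the 18S covariate they were 0 and 4725 (21%). Without the trend 2 members were called (38% of all tested probe sets), with array weights 3 (46%), and without single arrays 0 to 2 (32.7% to 42%). The female replicates 2 and 3 gave 0 when left out, and male replicate 4 and female replicate 1 gave 2. Relative to the epithelial structure genes 7 were called (54.6% of all), and 91.2% of all calls were higher in males, against 46.1% otherwise. That scale takes the list's mean difference, -0.45, from every probe set alike. A difference between -0.45 and 0 therefore turns by construction, as for Foxa2 (0.15), Grhl2 1427046_at (0.35), Grhl3 (0.20), Esrp1 (0.30), Ovol1 (0.18), Cdh1 (0.38), Shh (0.055), Klf4 (0.16), Twist1 (0.14), Twist2 (0.10) and Tcf4 (0.21). Cdh1 is itself among the 19 genes of the scale. Gata3 turned with array weights (-0.14), and ran from -0.10 to 0.18 without single arrays. The 18S covariate turned Elf3 (-0.078) and Epcam (-0.018), and Epcam ran from -0.025 to 0.056 without single arrays, below 0 without male replicate 2 or female replicate 1. The mean of a gene's probe sets turned Grhl2 (0.30) and Ovol1 (0.10). The cause of the turns outside the epithelial structure scale was not tested. Same-numbered arrays of the sexes correlated at -0.126, -0.084, 0.039 and -0.031, and the main fit did not pair them. Such values over all tested probe sets cannot exclude a shared litter or day. With the replicate block 2 members were called, Esrp2 1433683_at and Ehf 1451375_at (limma adjusted p = 0.0417). The fit of probe set ratios was chosen after seeing the data.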
